A study of Rattus norvegicus with 6 samples.

Results

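Schwann cells and the axons beside them hold on to each other through adhesion molecules of the immunoglobulin superfamily, and 10 genes of this kind were followed here, L1cam, Nrcam, Chl1, Nfasc, Ncam1, Alcam, Cadm1, Cadm2, Cadm3 and Cadm4. They were taken by gene name, whatever their values, from 29468 gene symbols in the series. Expression was measured by RNA sequencing in 3 samples of Schwann cell precursors (SCPs) and 3 samples of repair Schwann cells (RSCs). The SCPs came from sciatic nerves and the brachial plexus of untreated wild-type LEWIS rat embryos at embryonic day 14. The RSCs came from the distal sciatic nerve of wild-type LEWIS rats at 10 weeks of age, taken 1 week after the nerve was cut. Both groups share the strain, and the labels call both wild type, while the study's methods name a transgenic line with a red fluorescent protein as the donor of grafted cells and do not give a separate donor for the RNA. The groups differ at once in age, in nerve, in injury and in how the tissue was dissociated, so these cannot be told apart. By those methods, tissue was dissociated with enzymes, with less collagenase and for a shorter time in embryonic than in adult nerves. Cells that stuck to an uncoated flask were discarded in order to deplete fibroblasts and macrophages, and no sort is described. The number of animals in each sample is not given in the sources used here, and p-values therefore measure the spread between these samples only.

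The L1 family (L1cam, Nrcam, Chl1 and Nfasc) consists of membrane proteins with immunoglobulin and fibronectin domains, which bind each other and other partners on axons and glia and hold ankyrin on the inside of the cell. L1cam supports the growth of axons on Schwann cells and the wrapping of small axons, while glial Nrcam and axonal and glial forms of Nfasc build the node of Ranvier. Ncam1 and Alcam bind mainly to themselves or close relatives on the facing cell, and Ncam1 carries polysialic acid in young tissue. The cell adhesion molecules Cadm1 to Cadm4, also called nectin-like or SynCAM proteins, pair across the gap between cells. In myelinated nerve, Schwann cells carry Cadm4 and axons carry Cadm3, and this pair holds myelin along the internode.

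Of the 10 genes, 6 had an entry in the table of RefSeq promoters (build GRCr8), and the sequences shown are those of the 3 CADM genes that were higher in RSCs once all transcripts were counted, so that the start of each gene can be seen beside its values. For Chl1, Alcam and Nfasc the upstream window lay within the annotated gene, and it is not printed. Each sequence runs 5′ to 3′ up to the start site, 250 bases for Cadm4 and Cadm3 and 241 bases for Cadm2. Capitals mark matches on either strand to a GC box (GGGCGG), an AP-1 motif (TGANTCA) or a SOX motif (ACAANG).
Cadm4, chr1:89202839-89203088 (+ strand): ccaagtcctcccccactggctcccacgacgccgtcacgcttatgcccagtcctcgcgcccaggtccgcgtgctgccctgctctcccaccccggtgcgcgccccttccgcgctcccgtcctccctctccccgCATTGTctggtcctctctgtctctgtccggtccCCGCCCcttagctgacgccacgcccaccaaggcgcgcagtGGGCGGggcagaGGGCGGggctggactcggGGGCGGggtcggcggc
Cadm3, chr13:88349719-88349968 (- strand): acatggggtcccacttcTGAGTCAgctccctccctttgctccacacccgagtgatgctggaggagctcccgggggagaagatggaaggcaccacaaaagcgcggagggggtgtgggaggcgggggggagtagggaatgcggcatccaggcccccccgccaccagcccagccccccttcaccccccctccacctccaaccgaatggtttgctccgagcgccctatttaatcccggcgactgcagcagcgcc
Cadm2, chr11:18971896-18972136 (- strand): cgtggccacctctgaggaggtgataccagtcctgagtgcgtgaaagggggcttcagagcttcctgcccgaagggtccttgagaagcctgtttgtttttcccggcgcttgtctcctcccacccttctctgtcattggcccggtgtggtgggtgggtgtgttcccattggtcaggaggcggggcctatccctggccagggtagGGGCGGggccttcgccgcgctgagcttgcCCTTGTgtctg
The Cadm4 window held 4 GC boxes and 1 SOX motif, at a GC content of 74%. The Cadm2 window held 1 GC box and 1 SOX motif, and the Cadm3 window held 1 AP-1 motif and no GC box. Of 33469 promoter windows of 250 bases in the table, 30.5% held a GC box, 36.9% a SOX motif and 6.34% an AP-1 motif. An EGR motif (GCGTGGGCG) stood in 0.478% and an E-box (CANNTG) in 65.5% of all windows and in none of these 3. A match is a string of letters, not a site of binding.

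Levels are given in FPKM, a read density corrected for transcript length and library size, so genes of different length can be compared. The tables give no read counts, so depth is unknown and no error from counts was set on single values. They do give a lower and an upper confidence bound of FPKM, which did not enter the comparison. These bounds need not enclose the value. For the reference transcript of Cadm4 in SCP replicate 1, at 108.5 FPKM, they were 84.3 and 104.3. Those of the Nrcam transcript of 373 bases in RSC replicate 2, at 22.2 FPKM, were 6.62 and 20.9. From the ratio of coverage to FPKM, the samples' relative depth was 0.88 to 1.00 in SCPs and 0.79 to 0.84 in RSCs. Across all genes the log2 values of samples of the same group correlated at 0.944 to 0.956, and those of different groups at 0.840 to 0.857. Sox10, the transcription factor that marks the Schwann cell lineage, lay at 175 to 181 FPKM in SCPs and 143 to 149 FPKM in RSCs, so the marker was high under both labels. It was called as higher in SCPs, unlike most of its list of 15 Schwann lineage markers. Of these, 14 were tested with unnamed transcripts, and 2 (Sox10 and Cdh2) were higher in SCPs, against 34.2% of all genes. A further 11 were higher in RSCs, against 23.2% of all genes. The summed FPKM of this list was 846.2 to 956.4 in SCPs and 3556 to 4288 in RSCs. Other cells were also measured. With all transcripts counted, the summed FPKM of 16 neuron markers was 54.7 to 85.7 in SCPs and 27.6 to 36.0 in RSCs, with Elavl4, Isl1, Nefh and Ina listed at 0 in every RSC sample. The sum of 12 skeletal muscle markers was 100.4 to 322.8 in SCPs, highest in SCP replicate 3, and 35.8 to 41.5 in RSCs, where Myod1 and Myf5 were listed at 0. The sum of 16 leukocyte markers was 26.6 to 60.1 in SCPs, with Cd3e, Ms4a1 and S100a8 listed at 0, and 2482 to 2987 in RSCs. The sum of 11 fibroblast and mesenchyme markers was 1375 to 1863 in SCPs and 7007 to 8097 in RSCs. Of these 11, all tested, 4 (Twist1, Prrx1, Fbln1 and Postn) were called as higher in SCPs and 6 as higher in RSCs. Among all genes these shares were 34.2% and 23.2%. The sum was 28.0 to 36.2 and 252.5 to 308.7 for 6 perineurial markers, and 80.6 to 148.9 and 165.3 to 189.1 for 11 endothelial markers. Neurons, muscle and fibroblasts can express several of the 10 genes, and the part of these cells in the values that follow was not tested.

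Each gene was read in 2 ways. The first sums the reference transcripts, which are listed under the gene's name in every table. The second adds unnamed transcripts of the same locus, each assembled by Cufflinks from the reads of its own sample. The difference matters for this family. Cufflinks marked 61 of the 282 reference values of the 10 genes as low data, among them 25 of the 62 values above 0, and 5 genes (L1cam, Nrcam, Chl1, Nfasc and Cadm3) were listed at 0 in 1 to 3 samples while unnamed transcripts in the same place held all of their FPKM. In RSCs 52.4% to 58.7% of the FPKM of unnamed transcripts could be assigned to a gene, against 34.1% to 39.0% in SCPs, over all genes.

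On the reference transcripts, L1cam, Ncam1, Alcam and Cadm1 were higher in SCPs and Cadm2 and Cadm4 were higher in RSCs at an unadjusted p under 0.01 in limma, while Nrcam, Chl1 and Cadm3 were not called and Nfasc was too low to be tested. Of the 4 genes higher in SCPs, L1cam, Ncam1 and Alcam lost this call with some samples left out, and Cadm1 did not. The calls are 6 of 9 tested genes, where 40.5% of all 13003 tested genes were called, 22.4% as higher in SCPs and 18.1% as higher in RSCs. L1cam and Cadm4 also passed a 4-fold difference (2 on the scale of log2(FPKM + 1)). So did 11.6% of all genes, 3.78% higher in SCPs and 7.81% higher in RSCs. Adding 1 shrinks the ratio of low values, and Cadm2, 7.56-fold higher in RSCs by mean FPKM, did not pass. The groups did not overlap for 7 of the 9 tested genes, the exceptions being Nrcam and Cadm3, nor for 58.6% of all tested genes. With unnamed transcripts counted, all 10 genes were called, L1cam, Ncam1, Alcam and Cadm1 as higher in SCPs and Nrcam, Chl1, Nfasc, Cadm2, Cadm3 and Cadm4 as higher in RSCs. Of all 14019 genes tested in that way, 57.4% were called, 34.2% as higher in SCPs and 23.2% as higher in RSCs. Nrcam, Nfasc, Cadm2 and Cadm4 were then over 4-fold higher in RSCs, as were 8.57% of all genes, and none of the 10 was over 4-fold higher in SCPs, as were 4.58%. In either direction this was 13.1% of all genes. By mean FPKM Cadm3 was 4.13-fold higher in RSCs on this count, but it did not pass on the log2(FPKM + 1) scale. No gene of the 10 had overlapping groups on this count, and 72.4% of all genes had none either. The median log2 fold change of the 10 genes was 1.58 on this count and that of all tested genes was -0.24. Counted on reference transcripts, the medians were -0.10 for the 9 genes and -0.17 for all genes. Median-of-ratios scaling brought the median of all genes to 0.01 on the reference transcripts and -0.01 with unnamed transcripts. It moved the share of calls that were higher in RSCs from 44.6% to 55.5% and from 40.4% to 53.3%. It left each of the 10 genes called in the same direction with unnamed transcripts, the smallest differences being 1.64 among those higher in RSCs and -0.67 among those higher in SCPs.

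**Figure D1:**
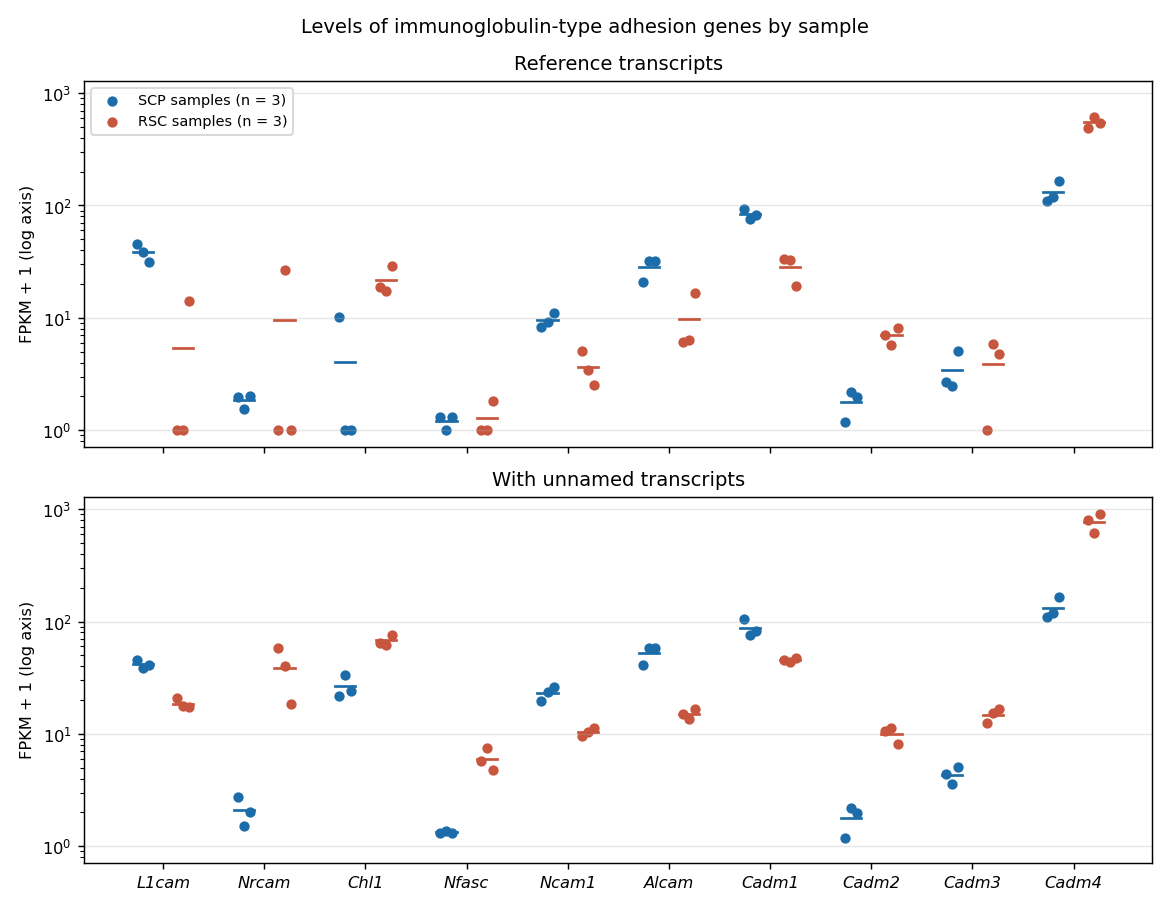
Level of each gene in every sample as FPKM + 1 on a log axis, from reference transcripts alone (top) and with unnamed transcripts (bottom). Points are samples (3 SCP, blue; 3 RSC, red) and bars are group means. In the lower panel the groups stand apart for all 10 genes, while in the upper panel L1cam, Nrcam, Nfasc and Cadm3 have RSC samples, and Chl1 and Nfasc SCP samples, listed at 0 (drawn at 1).

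L1cam, the founding member of its family, was higher in SCPs. The reference transcripts of L1cam measured 44.2, 37.6 and 30.5 FPKM in SCP replicates 1, 2 and 3, and 0, 0 and 13.0 FPKM in RSC replicates 1, 2 and 3. The log2 fold change was -3.98 ± 1.06 (SE, RSC minus SCP, adjusted p = 0.024). In RSC replicates 1 and 2, which set the size of this difference, 100% of the L1cam FPKM lay in unnamed transcripts. With these added, the levels were 44.2, 37.6 and 40.5 FPKM in SCPs and 19.9, 16.6 and 16.2 FPKM in RSCs. Means were 40.7 ± 3.27 and 17.6 ± 2.06 FPKM (SD, n = 3), a 2.32-fold higher level in SCPs (log2 fold change -1.17 ± 0.11, adjusted p = 0.00018). Every RSC sample thus held L1cam transcripts at a level below every SCP sample.

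The reference transcripts of L1cam are nearly alike in length, 5070, 5079, 5082 and 5097 bases. The shortest carried 44.2, 37.6 and 24.8 FPKM in the 3 SCP samples and 11.1 FPKM in RSC replicate 3. The transcript that is 12 bases longer was assigned 5.69 FPKM in SCP replicate 3 and 1.89 FPKM in RSC replicate 3. The longest, with 15 further bases, and the NM transcript of 5079 bases were listed at 0 in all 6 samples. Neuronal L1cam is known to include a pair of short exons that other cells skip. Whether the steps of 12 and 15 bases are those exons was not tested, and 5 of the 6 reference values above 0 were marked as low data.

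Nrcam, which on Schwann cells helps to gather sodium channels at forming nodes, had the largest difference of the 10 genes once unnamed transcripts were counted. The reference transcripts alone gave 0.98, 0.53 and 1.01 FPKM in SCPs and 0, 25.6 and 0 FPKM in RSCs, with no call (log2 fold change 0.71 ± 1.32, adjusted p = 0.69). With unnamed transcripts the levels were 1.73, 0.53 and 1.01 FPKM in SCPs and 56.7, 38.9 and 17.6 FPKM in RSCs. The difference was 4.10 ± 0.44 on the log2 scale (adjusted p = 0.00025). The groups stood far apart, and relative to their mean the RSC samples differed among themselves more than those of the other 9 genes. The gene is cut up in the tables. The annotation splits Nrcam into a piece of 373 bases and a piece of 7178 bases, and in RSC replicate 3 the unnamed transcripts spanned both. The short piece, or a transcript of 385 bases at the same place, held 22.7 FPKM in RSC replicate 1 and 22.2 FPKM in replicate 2. Without transcripts under 500 bases, the levels were 0.75, 0.53 and 1.01 FPKM in SCPs and 34.0, 16.7 and 17.6 FPKM in RSCs, still without overlap.

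Chl1, the close homolog of L1, was higher in RSCs. Its reference transcript was at 9.26, 0 and 0 FPKM in SCPs and 18.0, 16.3 and 28.2 FPKM in RSCs. Groups did not overlap, but p missed the threshold (log2 fold change 3.29 ± 0.95, adjusted p = 0.032). The 0 values again had unnamed transcripts beside them. With these, the levels were 20.8, 32.5 and 23.0 FPKM in SCPs and 64.1, 61.0 and 75.5 FPKM in RSCs. Chl1 was then called at a log2 fold change of 1.38 ± 0.18 (adjusted p = 0.00061), a smaller and more even difference than on the reference transcript. All 6 values of the reference transcript were marked as low data.

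Nfasc, whose glial form sits at the paranodal junction, was barely present in SCPs. Its 23 reference transcripts summed to 0.32, 0 and 0.31 FPKM in SCPs and to 0, 0 and 0.82 FPKM in RSCs, under the limit of 1 FPKM for a test. Counting unnamed transcripts, it was 0.32, 0.36 and 0.31 FPKM in SCPs and 4.74, 6.49 and 3.78 FPKM in RSCs. The log2 fold change was 2.15 ± 0.20 (adjusted p = 0.00015), which understates the ratio of such low values since 1 is added before the logarithm. Transcripts over 9000 bases held all of the SCP signal and 64.3% to 100% of that in RSCs.

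**Figure D2:**
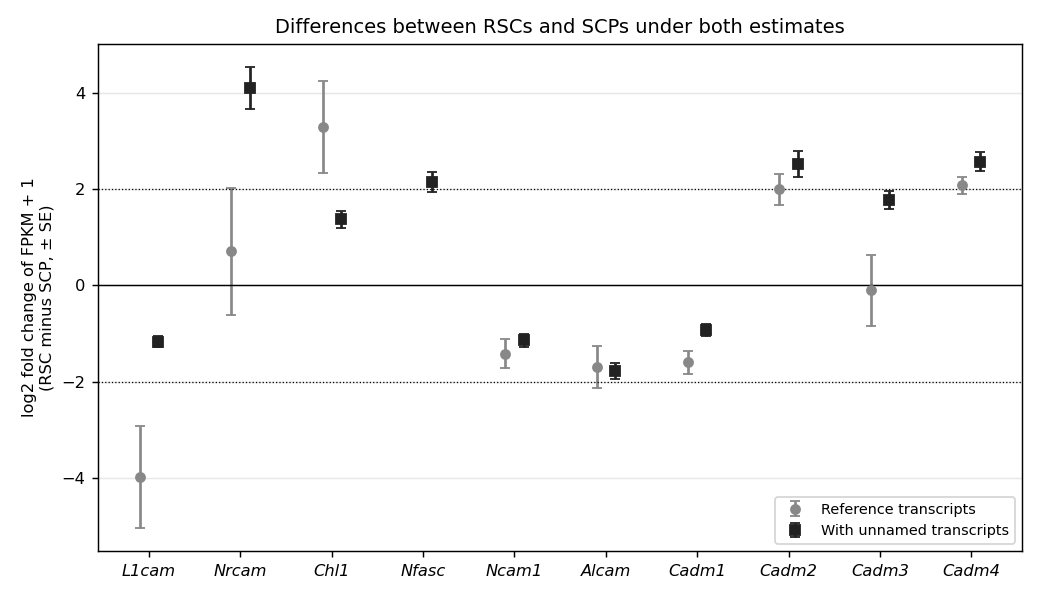
Difference between RSCs and SCPs for each gene on the log2(FPKM + 1) scale, RSC minus SCP, with SE, from reference transcripts (grey circles) and with unnamed transcripts (black squares); dotted lines mark a 4-fold difference (a log2 value of 2). L1cam moves from -3.98 to -1.17 and Nrcam from 0.71 to 4.10, while Ncam1, Alcam and Cadm4 change little, and Nfasc has a value only with unnamed transcripts.

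The family as a whole changed its make-up. Summed over L1cam, Nrcam, Chl1 and Nfasc with unnamed transcripts, the level was 64.8 to 71.0 FPKM in SCPs and 113.0 to 145.4 FPKM in RSCs. L1cam made up 53.0% to 65.9% of this sum in SCPs and 13.5% to 14.3% in RSCs. The share of Chl1 was 31.1% to 45.8% in SCPs and 44.1% to 66.8% in RSCs, and these ranges overlapped. Nrcam was 0.75% to 2.58% of the sum in SCPs and 15.5% to 39.0% in RSCs. In RSC replicates 1 and 2 this share includes 22.7 and 22.2 FPKM of Nrcam transcripts under 500 bases, which raise it. L1cam was therefore the leading member of the L1 family in all 3 SCP samples, and Chl1 in all 3 RSC samples.

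**Figure D3:**
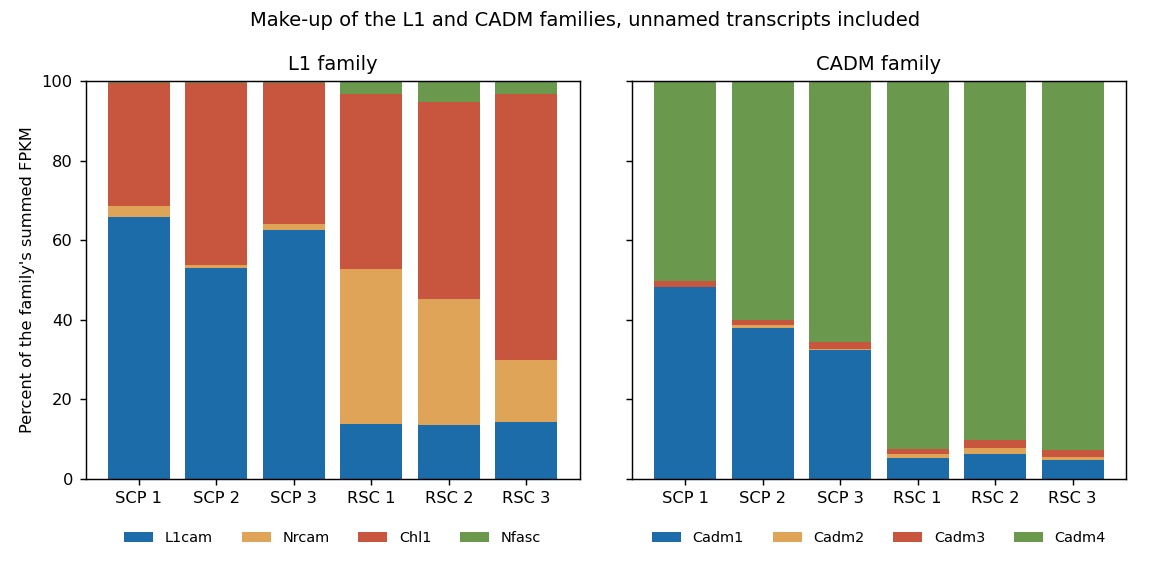
Share of each gene in the summed FPKM of its family in every sample, unnamed transcripts included, with the L1 family on the left and the CADM family on the right; each bar is 1 sample and adds to 100%. L1cam falls from 53.0% to 65.9% of its family in SCPs to 13.5% to 14.3% in RSCs, and Cadm4 stands at 50.2% to 65.7% in SCPs and 90.2% to 92.9% in RSCs. Nrcam includes its transcripts under 500 bases.

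Ncam1, the neural cell adhesion molecule, was higher in SCPs. The reference transcripts gave 7.27, 8.23 and 10.2 FPKM in SCPs and 4.09, 2.42 and 1.55 FPKM in RSCs (log2 fold change -1.42 ± 0.30, adjusted p = 0.01). With unnamed transcripts it was 18.6, 22.6 and 25.2 FPKM in SCPs and 8.62, 9.41 and 10.3 FPKM in RSCs. The level in SCPs was 2.35-fold higher (log2 fold change -1.14 ± 0.14, adjusted p = 0.00046), and no RSC sample reached the lowest SCP sample. Muscle cells and neurons are known to express Ncam1, and SCP replicate 3, with the highest Ncam1, also had the highest sum of muscle markers. Without that replicate the log2 fold change with unnamed transcripts was -1.05, the smallest of the 6 values with a sample left out, and was called, and on the reference transcripts it was -1.30 and was not called. The part of muscle in Ncam1 was not tested.

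The forms of Ncam1 were split by length after their values were seen, so they are described only and no weight is put on a test. A transcript under 3000 bases was assembled in each of the 3 RSC samples, at 2.13, 5.87 and 5.79 FPKM, and in none of the 3 SCP samples. It was 2644, 2487 and 2828 bases long in RSC replicates 1, 2 and 3. On chromosome 8 (rn6) it spanned from 53851858, 53851874 and 53851533 to 54134881. The forms of 6174 bases or more spanned from 53836797 to the same highest base. Positions run from the lowest to the highest base whatever the strand of the gene, so they do not mark its start or end. The named reference of 3177 bases ran from 53839674 to 54134731. The short form was 24.7%, 62.4% and 56.5% of Ncam1 in the RSC samples and was not listed in SCPs. Forms of 6174 to 6222 bases held 43.5% to 63.5% of Ncam1 in SCPs and 27.8% to 37.6% in RSCs. Ncam1 is known to make membrane-spanning proteins and a form held by a lipid anchor from alternative ends of the gene. Which protein the short transcript encodes was not tested.

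**Figure D4:**
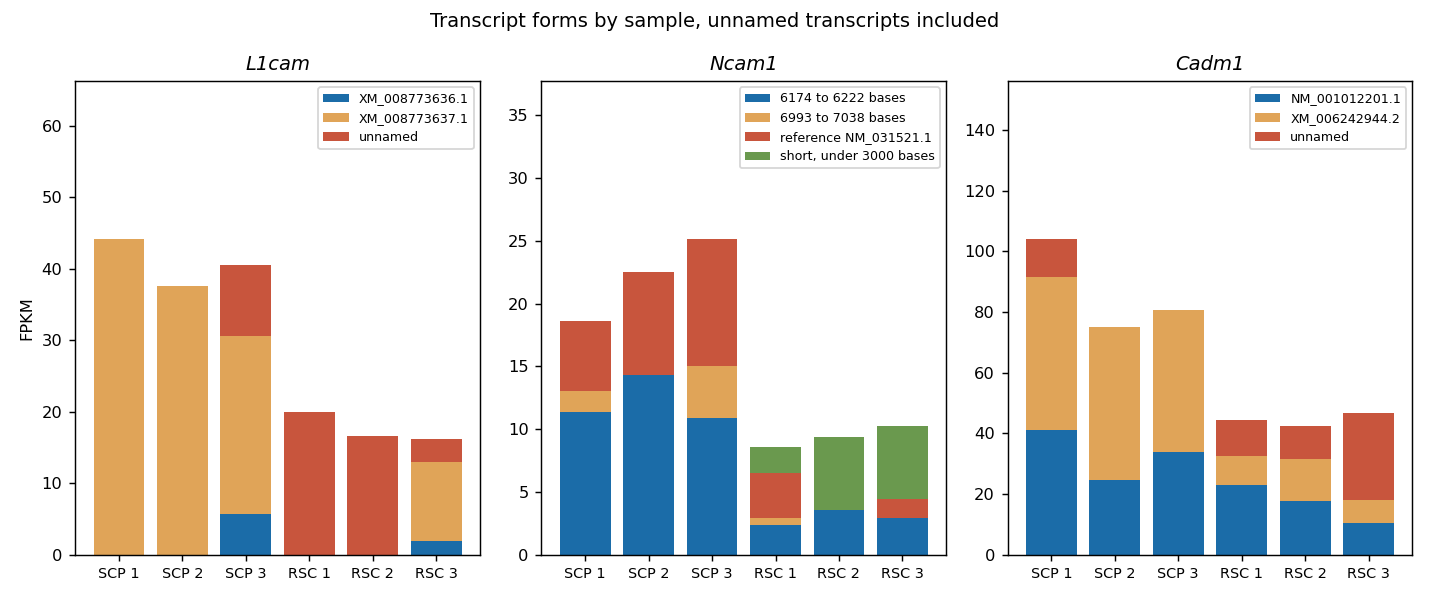
FPKM of L1cam, Ncam1 and Cadm1 in every sample, stacked by transcript form, unnamed transcripts included (vertical axes differ between genes). The shortest reference form leads L1cam in SCPs, the form of Ncam1 under 3000 bases is seen in all 3 RSC samples and no SCP sample, and Cadm1 is higher in SCPs in both of its reference forms.

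Alcam, which binds itself and CD6 and guides growing axons, was higher in SCPs on either count. The reference transcript measured 20.0, 31.3 and 31.3 FPKM in SCPs and 5.09, 5.40 and 15.6 FPKM in RSCs (log2 fold change -1.69 ± 0.43, adjusted p = 0.021). With unnamed transcripts it was 39.8, 57.3 and 57.0 FPKM in SCPs and 14.1, 12.6 and 15.6 FPKM in RSCs. This was a 3.65-fold higher level in SCPs (log2 fold change -1.78 ± 0.17, adjusted p = 0.00015), the largest of the 4 genes that were higher in SCPs. The RSC samples, which were far apart on the reference transcript, lay close together once all transcripts were counted.

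Among the CADM genes, Cadm4, the Schwann cell partner in the pair that lines the internode, had the highest level of the 10 genes in both groups. It measured 108.5, 118.9 and 163.9 FPKM in SCPs and 486.4, 617.9 and 540.7 FPKM in RSCs on its reference transcript. Means were 130.4 ± 29.4 and 548.4 ± 66.1 FPKM (SD, n = 3), and the log2 fold change was 2.08 ± 0.18 (adjusted p = 0.00033). The groups did not overlap, and the highest SCP sample was well under the lowest RSC sample. Unnamed transcripts added 312.8 FPKM in RSC replicate 1 and 369.5 FPKM in RSC replicate 3 and nothing in the other 4 samples. The difference then was 2.57 ± 0.20 on the log2 scale (adjusted p = 6.5e-05).

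Cadm3, known mainly from axons, was low in both groups on its reference transcripts alone. The reference transcripts gave 1.69, 1.49 and 4.07 FPKM in SCPs and 0, 4.80 and 3.77 FPKM in RSCs, with overlapping groups and no call (log2 fold change -0.10 ± 0.74, adjusted p = 0.93). With unnamed transcripts it was 3.42, 2.56 and 4.07 FPKM in SCPs and 11.5, 14.4 and 15.7 FPKM in RSCs. The groups then stood apart, at a log2 fold change of 1.78 ± 0.18 (adjusted p = 0.00023). Of 8 tested neuron markers, 5 were called as higher in SCPs and none as higher in RSCs, against 34.2% and 23.2% of all genes, and the part of axons in Cadm3 was not tested. Cadm2 had the same direction on both counts. It measured 0.19, 1.21 and 0.98 FPKM in SCPs and 6.03, 4.70 and 7.17 FPKM in RSCs on its reference transcript (log2 fold change 1.99 ± 0.31, adjusted p = 0.0034). With unnamed transcripts the RSC values were 9.56, 10.4 and 7.17 FPKM, the SCP values did not change, and the log2 fold change was 2.52 ± 0.27 (adjusted p = 0.00029).

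Cadm1, which binds Cadm2 and Cadm3 as well as itself, ran the other way. On the reference transcripts it was 91.4, 75.1 and 80.6 FPKM in SCPs and 32.4, 31.5 and 18.1 FPKM in RSCs (log2 fold change -1.60 ± 0.24, adjusted p = 0.0027). Including unnamed transcripts, it was 104.1, 75.1 and 80.6 FPKM in SCPs and 44.5, 42.6 and 46.8 FPKM in RSCs, a 1.94-fold higher level in SCPs (log2 fold change -0.93 ± 0.13, adjusted p = 0.00093). In SCP replicate 1 its locus was joined with LOC102556753, and all 5 reference values of that sample were marked as low data. Of 5 reference transcripts only NM_001012201.1 (1777 bases) and XM_006242944.2 (2171 bases) were above 0. The first was 45.0%, 32.8% and 41.9% of the reference level in SCPs and 71.1%, 56.3% and 58.1% in RSCs. All RSC shares of the reference level were above all SCP shares. Of the level with unnamed transcripts, however, the same form was 39.6%, 32.8% and 41.9% in SCPs and 51.9%, 41.6% and 22.5% in RSCs. These shares overlapped, and RSC replicate 3, where 61.3% of Cadm1 lay in unnamed transcripts, had the lowest.

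The sum over the 4 CADM genes with unnamed transcripts was 197.7 to 249.6 FPKM in SCPs and 685.3 to 979.8 FPKM in RSCs. Cadm4 made up 50.2% to 65.7% of it in SCPs and 90.2% to 92.9% in RSCs. Cadm1 was 32.3% to 48.1% in SCPs and 4.77% to 6.22% in RSCs. Cadm2 and Cadm3 were at most 2.1% each in all 6 samples, so the difference in the family's make-up was one between Cadm1 and Cadm4.

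Adding FPKM over partial transcripts can count a gene more than once, so the reads were also summed as FPKM times transcript length in kilobases, a measure of each gene's share of the reads, an alternative chosen after seeing the data. On this scale Nrcam was 3.81 to 7.26 in SCPs and 129.2 to 146.8 in RSCs, so the RSC samples, far apart in FPKM, lay close together. Chl1 was 102.7 to 124.2 in SCPs and 356.8 to 452.5 in RSCs, a 3.56-fold higher mean in RSCs. L1cam was 190.8 to 223.9 in SCPs and 82.6 to 92.4 in RSCs, 2.40-fold higher in SCPs. All 10 genes were called in the same directions as before and none had overlapping groups, where 62.7% of 15085 genes were called, 38% as higher in SCPs and 24.8% as higher in RSCs, and 76% did not overlap. These read shares depend on the length of a gene and are not compared between genes.

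By level, with unnamed transcripts counted, the order in SCPs ran from Cadm4 (130.4 ± 29.4 FPKM) over Cadm1 (86.6 ± 15.4), Alcam (51.4 ± 9.99), L1cam (40.7 ± 3.27), Chl1 (25.4 ± 6.22), Ncam1 (22.1 ± 3.27), Cadm3 (3.35 ± 0.76), Nrcam (1.09 ± 0.60) and Cadm2 (0.79 ± 0.54) to Nfasc (0.33 ± 0.02). The ranges of Alcam and L1cam, of Chl1 and Ncam1, of Nrcam and Cadm2, and of Cadm2 and Nfasc overlapped, so these neighbours do not differ beyond their spread. In RSCs the order was Cadm4 (775.8 ± 147.5 FPKM), Chl1 (66.9 ± 7.59), Cadm1 (44.6 ± 2.08), Nrcam (37.7 ± 19.6), L1cam (17.6 ± 2.06), Alcam (14.1 ± 1.49), Cadm3 (13.8 ± 2.12), Ncam1 (9.43 ± 0.81), Cadm2 (9.04 ± 1.67) and Nfasc (5.0 ± 1.37). Here Nrcam overlapped both of its neighbours, Alcam overlapped Cadm3, and Ncam1 overlapped Cadm2. The Nrcam level includes its transcripts under 500 bases. Without these, Nrcam was 34.0, 16.7 and 17.6 FPKM in RSCs.

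For the genes with the largest difference in each direction, the 3 genes with the most similar log2 values over the 6 samples were looked up as a description. With unnamed transcripts these were Prr18, Sox8 and Nars for Nrcam (Pearson r 0.996, 0.996 and 0.994) and Pknox2 and Serpinh1, of the closest 3, for Alcam (r 0.999 and 0.998). On the reference transcripts they were Clstn1, Kif5b and Lpin1 for Chl1 (r 0.996, 0.992 and 0.991) and LOC103690008, Wdr25l and Ythdf1 for L1cam (r 0.999, 0.994 and 0.992). The 6 points fall into 2 groups, and r over them includes the difference between the groups. On the reference transcripts r also includes shared 0 values. Like Chl1, Clstn1 and Lpin1 were listed at 0 in SCP replicates 2 and 3. Like L1cam, LOC103690008 was listed at 0 in RSC replicates 1 and 2. For Chl1 and L1cam, unnamed transcripts held the FPKM in those samples, so these matches are not read as shared expression. Sox8, a transcription factor of the same group as Sox10, was 4.07 to 6.21 FPKM in SCPs and 16.4 to 25.0 FPKM in RSCs.

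Beyond the 10 genes, a list of 41 other immunoglobulin-type adhesion genes was read, of which 40 were in the tables. On the reference transcripts 27 were tested, and 8 were higher in SCPs, 7 were higher in RSCs and 12 were not called. With unnamed transcripts 29 were tested, with 9 higher in SCPs, 10 higher in RSCs and 10 not called, and a median log2 fold change of 0.02. The share called among all genes was 40.5% and 57.4%. The largest differences were those of Cdon and Boc, surface receptors that assist hedgehog signalling, and of Icam1 and Thy1, ligands for leukocyte integrins. Cdon measured 17.7, 15.5 and 18.4 FPKM in SCPs and 0.96, 0.81 and 1.45 FPKM in RSCs with unnamed transcripts. Boc measured 24.8, 22.7 and 19.4 FPKM in SCPs and 0.71, 0.65 and 0.85 FPKM in RSCs. For neither gene did the groups overlap. Icam1 was 5.44, 10.6 and 8.06 FPKM in SCPs and 67.7, 56.8 and 52.2 FPKM in RSCs. Thy1 was 1.07, 3.41 and 5.14 FPKM in SCPs and 45.5, 50.8 and 49.9 FPKM in RSCs. Leukocytes and fibroblasts are known to express these. Of the leukocyte markers 13 of 14 tested were higher in RSCs, against 23.2% of all genes, and the fibroblast markers went both ways, as given above. The part of these cells was not tested.

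The proteins that sit beside or beneath these molecules were taken as a list of 37 membrane partners and cytoplasmic adaptors, 35 of them in the tables. Of 25 tested on the reference transcripts, 5 were higher in SCPs, 6 were higher in RSCs and 14 were not called, where 40.5% of all genes were called. Of 33 tested with unnamed transcripts, 11 were higher in SCPs, 13 were higher in RSCs and 9 were not called, at a median log2 fold change of -0.08, where 57.4% of all genes were called. Ezr (ezrin), which ties membrane proteins to actin, was 8.80, 12.6 and 16.4 FPKM in SCPs and 119.7, 107.7 and 124.0 FPKM in RSCs. Sptan1, the alpha chain of spectrin, was 75.8, 72.1 and 69.3 FPKM in SCPs and 154.7, 135.5 and 143.9 FPKM in RSCs. These 2 had the largest log2 fold changes called on the reference transcripts. At the other end, Dcx, a protein of microtubules in young neurons that binds Nfasc, was 2.38, 2.47 and 1.92 FPKM in SCPs and 0, 0.04 and 0 FPKM in RSCs. Epb41l3, a band 4.1 protein known from the axonal side of paranodes, was called as higher in SCPs on the reference transcripts (log2 fold change -1.69, adjusted p = 0.0028). With unnamed transcripts it was 15.7, 14.0 and 13.3 FPKM in SCPs and 13.9, 10.3 and 12.4 FPKM in RSCs and was not called. Ank3, ankyrin G, and Sptbn1, the beta chain of spectrin, were named after their values were seen. Ank3 was 9.74, 9.36 and 7.10 FPKM in SCPs and 38.1, 36.3 and 35.1 FPKM in RSCs, and Sptbn1 was 60.8, 65.1 and 58.9 FPKM in SCPs and 352.2, 293.7 and 302.7 FPKM in RSCs.

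The enzymes that cut these molecules from the surface or add sugars to them formed a list of 24 genes, all in the tables. Of 21 tested on the reference transcripts none was higher in SCPs, 5 were higher in RSCs and 16 were not called, where 22.4% of all genes were higher in SCPs and 18.1% in RSCs. With unnamed transcripts 22 were tested, with 3 higher in SCPs, 9 higher in RSCs and 10 not called, against 34.2% and 23.2% of all genes, and the median log2 fold change was 0.25. Bace2, a protease related to Bace1, was 3.35, 3.85 and 2.67 FPKM in SCPs and 65.9, 67.4 and 55.8 FPKM in RSCs. Plau, urokinase, was 0.78, 1.63 and 2.65 FPKM in SCPs and 41.6, 55.6 and 42.9 FPKM in RSCs. Both were the largest differences of the list on the reference transcripts. Bace1, which cleaves Chl1, and Adam12 were named after their values were seen and ran the other way with unnamed transcripts. Bace1 was 29.6, 27.5 and 40.4 FPKM in SCPs and 22.1, 11.8 and 16.9 FPKM in RSCs (log2 fold change -0.92, adjusted p = 0.015). Adam12 was 71.5, 70.3 and 67.6 FPKM in SCPs and 7.58, 10.7 and 9.03 FPKM in RSCs (log2 fold change -2.82). Neither was called on the reference transcripts. The genes St8sia2 and St8sia4, which build polysialic acid on Ncam1, were named after their values were seen and ran in opposite directions. St8sia2 was listed at 0 in SCPs on its reference transcripts, and with unnamed transcripts was 11.1, 18.4 and 20.4 FPKM in SCPs and 0.45, 1.23 and 0.43 FPKM in RSCs (log2 fold change -3.36, adjusted p = 9.4e-05). St8sia4 was 1.62, 1.93 and 1.87 FPKM in SCPs and 7.21, 3.95 and 12.6 FPKM in RSCs (log2 fold change 1.55, adjusted p = 0.0077). Neither was called on the reference transcripts, where St8sia2 was too low to be tested. In bulk samples such as these, fewer cells of a type and less RNA per cell cannot be told apart, for these enzymes as for the adhesion molecules themselves.

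**Figure D5:**
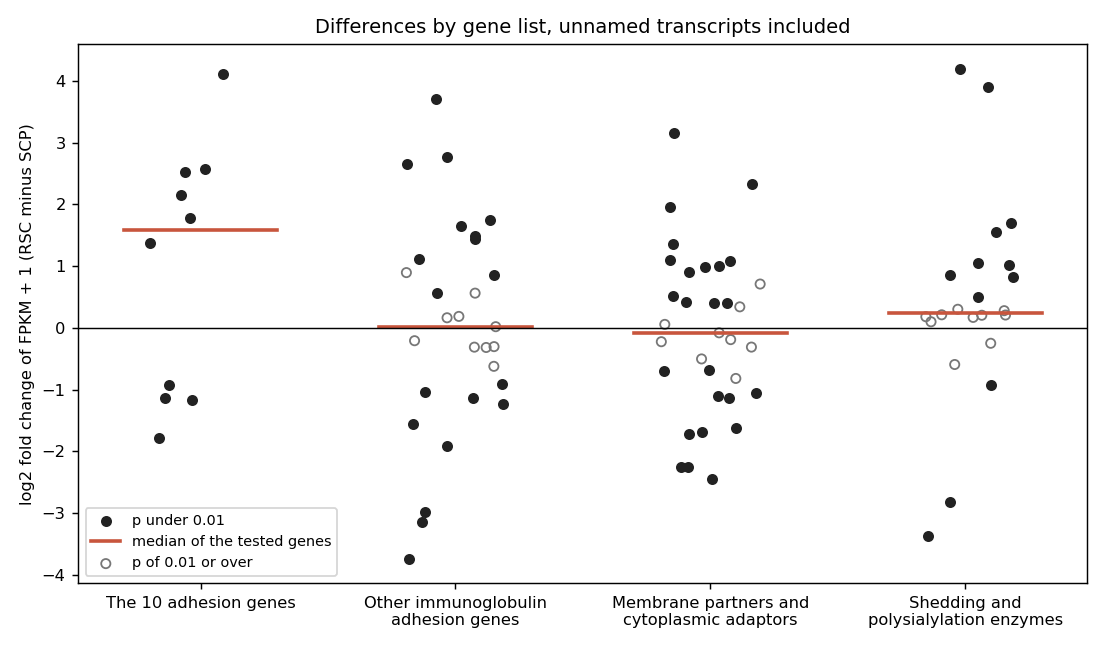
Log2 fold change (RSC minus SCP, FPKM + 1, unnamed transcripts included) of every tested gene in the 10 adhesion genes and the 3 lists; filled points had p under 0.01, open points did not, and red bars are medians. The 10 adhesion genes have a median of 1.58, and the lists have medians of 0.02, -0.08 and 0.25, against -0.24 for all tested genes.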

How the data were processed

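RNA from 3 SCP and 3 RSC samples was sequenced by the authors as stranded, paired-end mRNA libraries. Per the labels, reads were handled with FastQC 0.11.2, TopHat2 2.1.0 and Cufflinks 2.2.1 on the rn6 rat genome. The authors deposited 1 Cufflinks transcript table per sample with FPKM, normalized by Cufflinks for length and mapped fragments, a status mark, and the read coverage, a signal used here only for relative depth. The tables hold no counts, so no count test was run.

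FPKM of named transcripts were summed by symbol. Per sample, 77 transcripts whose gene names read as dates were dropped, and stray spreadsheet cells were ignored. In the second estimate an unnamed transcript went to the symbol of the same locus that it overlapped most. Positions are those of the deposited tables, counted from 1. Promoter sequences are RefSeq's on GRCr8, without the bases that lie in the gene. Reads shared between related genes were divided by Cufflinks in a way not given in the sources used here.

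The comparison, RSC minus SCP and two-sided, used limma 3.58.1 (R 4.3.3) on log2(FPKM + 1), let the variance follow a trend, and took in every gene averaging 1 FPKM or more. Replicate numbers did not enter this fit. A call is an unadjusted p under 0.01. Adjusted p-values were computed by the method of Benjamini and Hochberg across all genes in the fit. Of the steps, only the limma fit was tested on simulated data. Shares of transcript forms are described only. Exact permutation tests of 2 shares, the Ncam1 form under 3000 bases and Cadm1 NM_001012201.1 of the reference level, each gave a two-sided p = 0.1. This is the smallest p possible with 3 samples a group, so these tests cannot decide. Tables were handled with pandas 2.3.3.

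The 10 genes and the gene lists, written from general knowledge, were chosen with earlier results of these data known. Named were all 10 genes, the 2 highest and the 2 lowest called log2 fold changes of each list on the reference transcripts, and the 3 genes most correlated with the extreme members; other genes are said to have been named after their values were seen. Some genes that this rule or these lists hold are not reported here. As alternatives, each sample was left out, values were scaled by quantile or by median of ratios, the pseudocount was set to 0.1, the filter was dropped or raised to 5 FPKM, the variance trend was dropped, replicate numbers entered as a block, calls were made on adjusted p, the highest transcript stood for the gene, unnamed transcripts were added and zeros were left out. After seeing the data, several of these were repeated on the second estimate, which was also weighted by transcript length, Nrcam was summed without transcripts under 500 bases, and Ncam1 was split by transcript length.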

Additional observations from a re-analysis of the deposited data

How the results depend on the processing

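On the reference transcripts, the 4 genes called as higher in SCPs became 2 under median-of-ratios scaling, under quantile normalization, without the variance trend or with the replicate block, and 1 at an adjusted p under 0.01. Leaving out 1 sample at a time gave 1 to 4. Of the 4, Cadm1 kept its call under all of these. The 2 genes called as higher in RSCs became 1 with a mean of at least 5 FPKM and 6 with unnamed transcripts, and the 2 over 4-fold became 0 with quantile normalization, 1 with no variance trend, the replicate block or adjusted p, 4 with unnamed transcripts and 1 to 3 with a sample left out. With unnamed transcripts all 10 genes kept their direction and call under every setting tried on that count (each sample left out, median-of-ratios scaling, a pseudocount of 0.1, the replicate block, read shares and adjusted p).

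Without SCP replicate 1, the only SCP sample with Chl1 above 0 on the reference transcript, Chl1 was called at a log2 fold change of 4.41. L1cam and Alcam kept their calls without RSC replicate 3, at -5.25 and -2.16, and lost them without any other sample, at values down to -3.35 and -1.44 in size. Ncam1 lost its call without SCP replicate 2 (-1.44), SCP replicate 3 (-1.30) or RSC replicate 2 (-1.40). Nrcam turned to -0.52 with a pseudocount of 0.1. Cadm3 turned to 0.028 with median-of-ratios scaling and 1.78 with unnamed transcripts, and ranged from -0.57 to 0.70 with a sample left out. Of these Nrcam and Cadm3 values, only the 1.78 was called, and Nrcam was also called with zeros left out, at 3.87.

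Of the lists, the other adhesion genes higher in SCPs went from 8 to 4 with a mean of at least 5 FPKM. With unnamed transcripts the partners and adaptors went to 11 and 13, and the enzymes to 3 and 9. The enzymes higher in SCPs, 0 at first, were 1 with zeros left out and 0 to 1 with a sample left out. No filter and the highest transcript per gene left these counts within 1.5 times.

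Replicate numbers did not pair the samples: deviations of same-numbered samples correlated at 0.044, -0.005 and 0.026. The replicate block took the calls over all genes from 5268 to 4275. The cause of these changes was not tested, apart from the fewer samples and genes that some settings leave. The limits are the unknown depth, 3 samples a group, and gene levels split between transcripts.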

Other observations

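The contactins, lipid-anchored immunoglobulin molecules that pair with L1-type proteins, were below the limit for a test and were singled out after their values were seen. With unnamed transcripts, Cntn4 was 0.74, 1.13 and 1.07 FPKM in SCPs and listed at 0 in all 3 RSC samples. Cntn5 was 0.87, 0.71 and 0.75 FPKM in SCPs and Cntn6 was 0.16, 0.30 and 0.34 FPKM, again with 0 in every RSC sample. Cntn1 was 1.10, 1.70 and 1.79 FPKM in SCPs and 0, 0 and 0.07 FPKM in RSCs. Cntn2, by contrast, was 1.05, 0.40 and 0.30 FPKM in SCPs and 1.03, 0.35 and 0.73 FPKM in RSCs, with overlapping groups. Of 8 tested neuron markers, 5 were higher in SCPs, against 34.2% of all genes, and their part in these values was not tested.

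In L1cam, unnamed transcripts on chromosome X (rn6) reached far below the reference transcripts, whose lowest base is 156911336. Their lowest base was 156901393 in RSC replicate 1, 156901397 in RSC replicate 2, 156901275 in RSC replicate 3 and 156901258 in SCP replicate 3. In RSC replicate 2 a further 1 had its lowest base at 156910451. The highest base was 156928056, except for 1 transcript with 156924290 in RSC replicate 1. In SCP replicates 1 and 2 no unnamed transcript was listed at L1cam.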
